A study of Mus musculus with 10 samples.

Results

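The ends of the 19 mouse autosomes were described in lists of topologically associating domains (TADs) and of chromatin interactions. A centromere side was the stretch from 3 to 10 Mb of a chromosome in mm9, and a telomere side was the last 7 Mb before the largest position listed for that chromosome in any library. The segment from 3 to 8.5 Mb of chromosome 14 and the segment from 7 to 10 Mb of chromosome 7 were left out. This gave 38 ends, 19 on each side, beside 19 chromosome middles, of 57 stretches in all. The centromere sides covered 124.5 Mb, the telomere sides 133.0 Mb and the middles 2147.95 Mb. The rule names positions and uses no score or count, but the telomere border depends on the largest position listed, and the rule was written with earlier results of these data known. The reason for leaving out the 2 segments is not given, and where keeping them in changed a result, that value is given beside it.

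The cells were mouse embryonic stem cells of the line ES-E14TG2a, grown without feeder cells in medium with LIF and inhibitors of GSK3b and MEK, which keeps them pluripotent. The 5 genotypes were E1-KO, E2-KO and E3-KO, each lacking 1 enhancer, E1&E3-dKO, lacking E1 and E3, and WT, with 2 libraries each. The labels do not give the positions of the enhancers, nor whether a genotype is 1 clone or its libraries came from separate cultures, and a p-value therefore reflects the spread among libraries, which may be technical. Contacts were measured by exo-Hi-C, a form of Hi-C in which exonucleases remove linear DNA after proximity ligation.

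All mouse autosomes have the centromere next to one end. The centromere consists of satellite repeats that are left out of the assembled sequence, so that the assembly begins on the long arm, and the satellites of several chromosomes gather in the nucleus into chromocentres. The opposite end carries the telomere, a terminal repeat bound by a protective protein complex, with subtelomeric sequence next to it. A TAD is a stretch of chromosome whose parts contact each other more often than they contact the neighbouring stretches, and its borders are often held by the protein CTCF and by cohesin, the ring complex that extrudes chromatin loops.

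On the autosomes the shortest TAD list was that of E1-KO replicate 1, with 2543, and the longest that of E2-KO replicate 1, with 7431. The shortest list of interactions had 439 pairs (WT replicate 2) and the longest 5835 (E1&E3-dKO replicate 2). An interaction is a pair of 10 kb bins with an adjusted p of at most 0.01 in the authors' list, and the median pair of a library rested on 3 to 16 reads. E2-KO replicate 1 and E1&E3-dKO replicate 2 stood apart in the length of their lists. An end was therefore compared with the middle or with the other end within a library, as a log2 ratio. Counts, reads and scores of single features, and borders and interactions lost or gained, are set between libraries below. In the main results those comparisons are not corrected for the length of the lists. Total library depth is unknown.

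TADs were sparser at both kinds of end than in the chromosome middles, more so on the centromere side. The centromere sides held 0.79 and 1.00 TADs per Mb in the 2 E1-KO libraries, 2.54 and 1.15 with E2-KO, 0.97 and 1.32 with E3-KO, 0.93 and 1.37 with E1&E3-dKO, and 0.75 and 1.02 in WT. The telomere sides held 1.03 and 1.27 in the 2 E1-KO libraries, 2.57 and 1.38 with E2-KO, 1.28 and 1.65 with E3-KO, 1.17 and 1.59 with E1&E3-dKO, and 1.06 and 1.23 in WT. The middles held 1.07 and 1.40 in the 2 E1-KO libraries, 3.15 and 1.63 with E2-KO, 1.29 and 1.88 with E3-KO, 1.28 and 1.88 with E1&E3-dKO, and 1.13 and 1.38 in WT. The ranges of the stretches overlapped between libraries, while in each of the 10 libraries the order was centromere side, telomere side, middle from low to high.

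**Figure D1:**
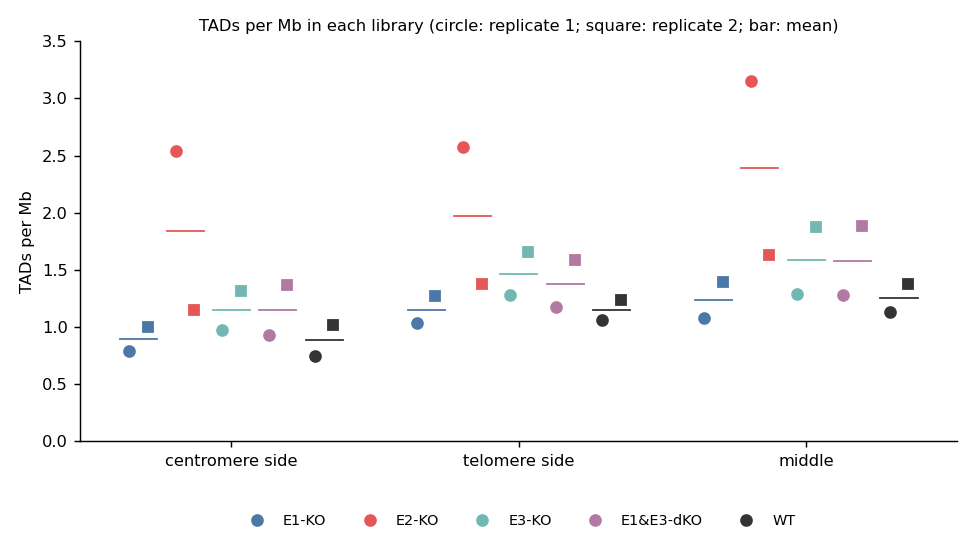
TADs per Mb (vertical axis) on the centromere sides, the telomere sides and in the middles, for the 2 libraries of each genotype (circle, replicate 1; square, replicate 2) with their mean as a bar. E2-KO replicate 1 was the highest library in each kind of stretch, and each library was lower on the centromere side than in its own middle.

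The centromere side was at 0.725 times the middle, a log2 ratio of -0.46 ± 0.07 (SD, n = 10), and it was below the middle in 10 of 10 libraries. The exact sign-flip permutation test over the 10 libraries gave its smallest possible p, 0.00195, and a Benjamini-Hochberg adjusted p of 0.0129 over the 33 tests made (exact permutation, two-sided). The telomere side was at 0.897 times the middle, a log2 ratio of -0.16 ± 0.09 (SD, n = 10), again below it in 10 of 10 libraries, with the same adjusted p of 0.0129 by the exact permutation test. The centromere side was at 0.808 times the telomere side, a log2 ratio of -0.31 ± 0.13 (SD, n = 10; adjusted p = 0.0129, exact permutation test). The titles fall into 4 libraries that begin with w326 and 6 others, and the labels do not say what this marks. The 4 are both E2-KO libraries, E3-KO replicate 2 and WT replicate 1. The log2 ratio to the middle was -0.48 in those 4 and -0.45 in the other 6 on the centromere side, and -0.20 and -0.12 on the telomere side, where the smallest p that 4 and 6 libraries allow is 0.125 and 0.03125 (exact permutation tests). With ends of 10 Mb the telomere side was at -0.07 and no longer passed (adjusted p = 0.0709, exact permutation test).

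Most of the deficit lay in the outermost 2 Mb of the ends. Counted by midpoint, the centromere sides held 0.233 ± 0.145 TADs per Mb in the megabase that begins at 3 Mb and 0.494 ± 0.438 in the next, against 1.61 ± 0.61 in the middles (SD, n = 10 libraries). From 2 Mb inward the centromere side lay between 1.34 and 1.57 per Mb up to its inner border. Beyond that border, from 7 to 14 Mb after the 3 Mb mark, stretches counted as middle lay between 1.29 and 1.61 TADs per Mb. The telomere sides held 0.247 ± 0.257 TADs per Mb in their last megabase and 0.768 ± 0.552 in the one before it (SD, n = 10). Further in, the telomere sides lay between 1.62 and 1.81 TADs per Mb, at or above the level of the middles.

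**Figure D2:**
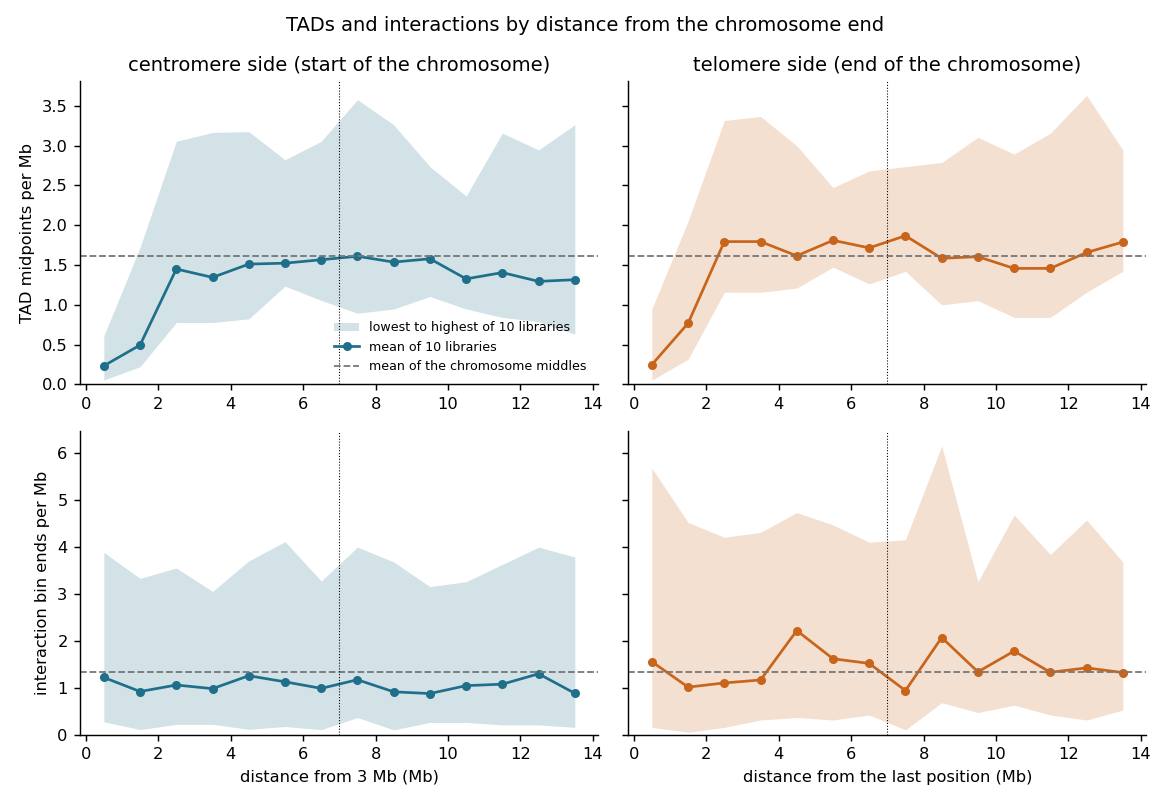
TAD midpoints per Mb (top) and interaction bin ends per Mb (bottom) against the distance in Mb from the start of the centromere side (left) or from the last listed position (right). Points are means of 10 libraries, the band runs from the lowest to the highest library, the dashed line is the mean of the chromosome middles, and the dotted line marks the inner border of an end at 7 Mb. TAD midpoints were at 0.233 and 0.247 per Mb in the outermost megabases while bin ends were at 1.22 and 1.56 per Mb.

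With the outermost 2 Mb left out, a setting chosen after seeing the data, the telomere sides held more TADs than the middles. They then held 1.83 ± 0.49 per Mb against 1.61 ± 0.61 in the middles (SD, n = 10), a log2 ratio of 0.22 ± 0.14 that was above 0 in 9 of 10 libraries (adjusted p = 0.0215, exact sign-flip permutation test). The centromere sides stayed below the middles by less, with 1.53 ± 0.62 TADs per Mb and a log2 ratio of -0.08 ± 0.05 (SD, n = 10), below 0 in 10 of 10 libraries. Thus the direction on the telomere side turned on whether its last 2 Mb were counted.

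Interactions were listed in the same outermost stretches. The megabase from 3 Mb held 1.22 ± 1.28 bin ends per Mb and the last megabase of the telomere side held 1.56 ± 1.63, against 1.34 ± 1.42 in the middles (SD, n = 10). The part of missing reads or of the TAD caller's own handling of chromosome ends in the low number of TADs there was not tested.

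All 18 centromere sides with an outermost stretch in use held fewer TADs per Mb there than their own middle, and so did all 19 telomere sides. On the centromere side the outermost 2 Mb ranged from 0.05 TADs per Mb to 1.45 on chromosome 4, with a median of 0.475, against a median of 1.61 in the middles of the same chromosomes. On the telomere side they ranged from 0.1 to 1.2 TADs per Mb, the highest on chromosome 19, with a median of 0.7, against a median of 1.57 in the middles. In the rest of the end, 11 of 19 centromere sides and 6 of 19 telomere sides were below their own middle.

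**Figure D3:**
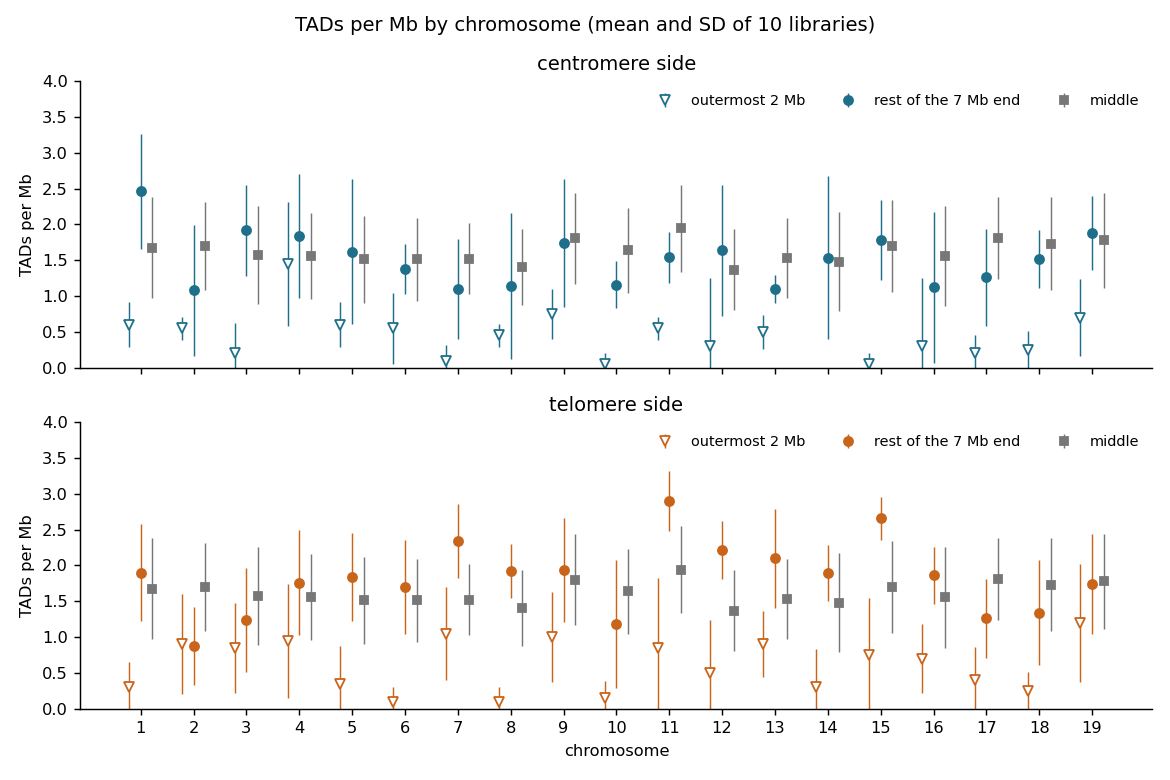
TADs per Mb (mean and SD of 10 libraries) for each chromosome in the outermost 2 Mb (open triangles), in the rest of the end (circles) and in the middle (squares), for centromere sides (top) and telomere sides (bottom). The open triangles lie under the squares on each chromosome shown. The centromere side of chromosome 14 has no triangle because that stretch was left out.

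The first TAD of a chromosome began a median of 1.94 Mb after the 3 Mb mark over the 19 chromosomes, and the last TAD ended a median of 1.83 Mb before the last position. Left-out segments were included here, and the first TAD of chromosome 14, 4.515 Mb after the mark in the median library, lay in one. On chromosomes 9 and 11 the first TAD began 0.05 and 0.11 Mb after the mark in the median library, and on chromosome 9 the last TAD ended 0.285 Mb before the last position. The distance exceeded 1 Mb on 16 chromosomes at the centromere side, chromosome 14 among them, and on 17 at the telomere side. TADs covered 38.9% ± 3.7 of the centromere sides and 35.0% ± 3.0 of the telomere sides, against 43.2% ± 2.1 of the middles (SD, n = 10). In the outermost 2 Mb the cover was 13.1% ± 3.6 on the centromere side and 11.98% ± 3.95 on the telomere side (SD, n = 10).

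Whole ends differed among chromosomes. The centromere sides of chromosomes 1 and 4 held the most TADs, 1.93 ± 0.63 and 1.7 ± 0.77 per Mb, against 1.68 ± 0.71 and 1.56 ± 0.60 in their own middles (SD, n = 10). Those of chromosomes 7 and 13 held the fewest, 0.6 ± 0.34 and 0.814 ± 0.224 per Mb, against 1.52 ± 0.50 and 1.54 ± 0.56 in their middles. With its left-out segment the side of chromosome 7 covered 4 Mb in place of 7 Mb, and without the outermost 2 Mb both sides were at 1.1 TADs per Mb. Of the telomere sides, chromosomes 11 and 15 held the most, 2.26 ± 0.54 and 2.0 ± 0.41 per Mb, against 1.94 ± 0.60 and 1.70 ± 0.65 in their middles. Chromosomes 2 and 10 held the fewest, 0.771 ± 0.527 and 0.857 ± 0.680 per Mb, against 1.69 ± 0.61 and 1.64 ± 0.60 in their middles. Against 297 windows of 7 Mb from the middles, with a 10th percentile of 1.17 TADs per Mb, 9 of 19 centromere sides, the shorter one of chromosome 7 among them, and 5 of 19 telomere sides were below that percentile.

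Each listed TAD carried a score of at least 1.5 from the authors' caller, and how that score was computed is not given in the sources used here. With a minimum of 2 the deficit was no longer called: the log2 ratio to the middle was -0.04 on the centromere side and 0.05 on the telomere side (adjusted p = 0.969 for both, exact sign-flip permutation test). Few TADs passed that minimum. The number per library was 11 to 31 on the centromere sides and 11 to 41 on the telomere sides, against 205 to 563 in the middles, without E2-KO replicate 1. That library had 176 and 167 at the ends, against 3663 in the middles. In the last megabase of the telomere side such TADs were at 0.0579 ± 0.1477 per Mb, and in the megabase from 3 Mb at 0.156 ± 0.110, against 0.308 ± 0.4934 in the middles (SD, n = 10). These means include E2-KO replicate 1, whose 3663 TADs raise the value of the middles. Means per Mb without that library were not computed, so they do not show a deficit in the others.

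TADs on the centromere side were longer than those of the middle. Their median length was 420 and 280 kb in the 2 E1-KO libraries, 100 and 240 kb with E2-KO, 250 and 140 kb with E3-KO, 285 and 135 kb with E1&E3-dKO, and 350 and 260 kb in WT. In the middles the medians were 270 and 200 kb in the 2 E1-KO libraries, 90 and 160 kb with E2-KO, 230 and 140 kb with E3-KO, 220 and 130 kb with E1&E3-dKO, and 250 and 220 kb in WT. The centromere side was longer in 9 of 10 libraries and equal in E3-KO replicate 2. The log2 ratio was 0.31 ± 0.23 (SD, n = 10; adjusted p = 0.0184, exact sign-flip permutation test), a median length 1.24 times that of the middle, and it was 0.31 in the 4 libraries titled w326 and 0.32 in the other 6. The call was lost with ends of 5 Mb or 10 Mb and with TADs placed by their midpoint (adjusted p = 0.0645, 0.0709 and 0.0573, exact permutation tests). Lengths on the telomere side were 90 to 240 kb and gave a log2 ratio to the middle of 0.01 ± 0.14 (SD, n = 10; adjusted p = 0.928, exact permutation test).

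Median scores at the ends were close to those of the middles. They ranged over libraries from 1.69 to 2.04 on the centromere side and from 1.67 to 1.99 on the telomere side, against 1.67 to 2.03 in the middle. The log2 ratio to the middle was 0.02 ± 0.02 on the centromere side (SD, n = 10; adjusted p = 0.0573) and 0.01 ± 0.02 on the telomere side (adjusted p = 0.176, exact sign-flip permutation tests). With the mean of log2 scores in place of the median, both passed the threshold, at 0.03 and 0.02 (adjusted p = 0.00716 for both, exact permutation tests).

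A share of the TADs at the ends recurred. Of 758 distinct TADs on the centromere sides, 82 were in at least 5 libraries (10.8%, 95% Wilson interval 8.80 to 13.2%) and 9 were in all 10. Of 918 on the telomere sides, 110 were in at least 5 libraries (11.98%, interval 10.04 to 14.2%) and 12 were in all 10. In the middles the share was 11.5% of 17409 distinct TADs. Of the borders, 14.9% of 1036 on the centromere sides and 20.1% of 1208 on the telomere sides were in at least 5 libraries, against 17.7% of 23522 in the middles. TADs of a library share its reads and the intervals cover counting error only.

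The highest-scoring TAD found in all libraries on the centromere side was the one next to the assembly start of chromosome 9, from 3.05 to 4.5 Mb, 1450 kb long. Its score was 2.96 and 2.94 in the 2 E1-KO libraries, 3.88 and 3.22 with E2-KO, 2.59 and 2.67 with E3-KO, 2.82 and 2.79 with E1&E3-dKO, and 2.76 and 3.02 in WT. All other TADs named here were shorter. On chromosome 6 the TADs from 5.35 to 5.56 Mb and from 6.95 to 7.62 Mb scored 2.23 ± 0.14 and 2.03 ± 0.10 (SD, n = 10). The TAD from 9.71 to 9.95 Mb on chromosome 3 scored 2.06 ± 0.22, and the one from 9.04 to 9.39 Mb on chromosome 9 scored 1.90 ± 0.17 (SD, n = 10).

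On the telomere side the highest-scoring TAD of this kind lay on chromosome 12 from 115.17 to 115.29 Mb. It scored 2.00 and 3.11 in the 2 E1-KO libraries, 10.1 and 4.44 with E2-KO, 2.19 and 3.12 with E3-KO, 2.95 and 2.80 with E1&E3-dKO, and 2.51 and 2.48 in WT. Both E2-KO libraries were above all others, including the other 2 libraries titled w326. The difference between genotypes was not tested for this single TAD. The next were from 193.65 to 193.8 Mb on chromosome 1, with a score of 2.25 ± 0.25, and from 157.52 to 157.76 Mb on chromosome 3, with 2.14 ± 0.17 (SD, n = 10). Those from 113.07 to 113.32 Mb on chromosome 13 and from 92.31 to 92.5 Mb on chromosome 16 scored 2.09 ± 0.16 and 2.09 ± 0.30 (SD, n = 10).

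Interactions with a bin in an end depended on how they were counted. By pairs with at least 1 bin in a stretch, the centromere sides held 0.31 and 0.25 per Mb in the 2 E1-KO libraries, 2.45 and 0.40 with E2-KO, 0.35 and 0.80 with E3-KO, 0.58 and 3.37 with E1&E3-dKO, and 0.72 and 0.27 in WT. The telomere sides held 0.60 and 0.38 in the 2 E1-KO libraries, 2.55 and 0.58 with E2-KO, 0.64 and 0.98 with E3-KO, 0.66 and 4.29 with E1&E3-dKO, and 0.91 and 0.41 in WT. The middles held 0.43 and 0.21 in the 2 E1-KO libraries, 1.45 and 0.42 with E2-KO, 0.34 and 0.62 with E3-KO, 0.36 and 2.68 with E1&E3-dKO, and 0.53 and 0.20 in WT. The telomere side exceeded the middle in 10 of 10 libraries, by a log2 ratio of 0.76 ± 0.18 (SD, n = 10; adjusted p = 0.0129, exact sign-flip permutation test; 0.68 in the 4 libraries titled w326 and 0.81 in the other 6), and the centromere side in 8 of 10, by 0.28 ± 0.36 (adjusted p = 0.155, exact permutation test).

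That rule counts a pair inside the long middle once, although both its bins lie there, while most pairs of an end reach out of it and are counted in full. Counted as bin ends per Mb, the centromere side was lower than the middle, with a mean of 1.08 ± 1.13 against 1.34 ± 1.42 per Mb (SD, n = 10), a log2 ratio of -0.35 ± 0.24, below 0 in 9 of 10 libraries (adjusted p = 0.0184, exact permutation test). Over all chromosomes the telomere side was above the middle, with 1.46 ± 1.32 bin ends per Mb and a log2 ratio of 0.23 ± 0.17, above 0 in 9 of 10 libraries (adjusted p = 0.0286, exact permutation test). Without chromosome 12, a setting chosen after seeing the data, the telomere sides held 1.23 ± 1.28 bin ends per Mb against 1.31 ± 1.42 in the middles, and the log2 ratio was -0.08 ± 0.34, above 0 in 5 of 10 libraries (SD, n = 10; adjusted p = 0.833, exact permutation test). The excess by bin ends thus rested on chromosome 12. By pairs the telomere side was at 0.58 without it (adjusted p = 0.0215, exact permutation test). The rule of counting by pairs raises that ratio, so it does not show an excess without chromosome 12. In 297 windows of 7 Mb from the middles, counted by pairs as the ends were, the median was 1.06 pairs per Mb. The medians over chromosomes were 0.914 on the centromere sides and 1.13 on the telomere sides, with means of 0.949 and 1.2. The centromere side was below the telomere side by either count, with log2 ratios of -0.48 ± 0.29 by pairs and -0.58 ± 0.32 by bin ends (SD, n = 10; adjusted p = 0.0129 and 0.0161, exact permutation tests). By pairs that difference was -0.26 without chromosome 12, and with the left-out segments kept in it was -0.07, and neither passed (adjusted p = 0.243 and 0.733, exact permutation tests). By bin ends and without chromosome 12 it was -0.24 and did not pass (adjusted p = 0.48, exact permutation test).

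The ratio listed for each bin, taken here as a bias factor of that bin although the lists do not name it, had a median over libraries of 0.954 for bins of listed pairs on the centromere side and 1.03 on the telomere side, against 1.02 in the middle. The part of this ratio in the number of listed pairs was not tested. Pairs of 20 Mb or more made up over 50% of the pairs with a bin on the centromere side in 8 of 10 libraries. On the telomere side this held in 7 of 10, and in the middle in 7 of 10 too. They made up 63.8% ± 21.8 of those with a bin on the centromere side and 58.2% ± 24.0 on the telomere side, against 49.9% ± 18.8 in the middle (SD, n = 10). Inside an end a short pair counts once for both its bins, while a long pair counts once for the only bin it has there. In the middles most pairs of either kind have both bins there. By this rule the share of long pairs is raised at an end, and its part in the difference was not tested. The lowest shares were in E1-KO replicate 1, with 23.1% on the centromere side and 8.75% on the telomere side, against 11.4% in its middle.

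By chromosome, the telomere side of chromosome 12 held the most pairs, 3.1 ± 2.3 per Mb against 0.967 ± 0.874 in its middle (SD, n = 10), followed by chromosome 5 with 1.63 ± 1.66 against 0.783 ± 0.909. The telomere sides of chromosomes 2 and 19 held the fewest, 0.686 ± 0.602 and 0.514 ± 0.904 per Mb, against 0.714 ± 0.845 and 0.303 ± 0.499 in their middles. The centromere sides ranged from 0.557 ± 0.781 per Mb on chromosome 8, against 0.754 ± 0.716 in its middle, to 1.36 ± 1.53 on chromosome 6, against 0.847 ± 0.883. These are counts by pairs, which lower the middles as described above. By bin ends, the telomere sides of chromosomes 12 and 5 were at 5.54 and 2.13 per Mb, against 1.83 and 1.46 in their middles. Those of chromosomes 2 and 19 were at 0.857 and 0.6, against 1.37 and 0.516. The centromere sides of chromosomes 8 and 6 were at 0.6 and 1.63, against 1.41 and 1.59.

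Each class of pairs was then set against the number expected from the density of listed pairs within the middles at the same distance, in classes of 5 Mb. Within the telomere sides 344 pairs were listed over the 10 libraries against 165 expected, and the log2 ratio per library was 0.85 ± 0.67 (SD, n = 10), above 0 in 9 of 10 libraries (adjusted p = 0.0242, exact sign-flip permutation test). It was 1.13 in the 4 libraries titled w326 and 0.67 in the other 6. Chromosome 12 alone held 171 of the 344 pairs, 49.7%. Without it 173 pairs were listed against 144 expected, and the log2 ratio was -0.11 ± 0.91, above 0 in 4 of 10 libraries (adjusted p = 0.864, exact permutation test), so the excess rested on that chromosome. With classes of 0.5 Mb for pairs under 10 Mb the ratio was 0.51 (adjusted p = 0.129, exact permutation test). Both settings were chosen after seeing the data.

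The pairs on the telomere side of chromosome 12 numbered 9 and 17 in the 2 E1-KO libraries, 47 and 35 with E2-KO, 10 and 23 with E3-KO, 2 and 14 with E1&E3-dKO, and 13 and 1 in WT. As raw counts the E2-KO libraries were above all others. They were also above the 23 and 13 of E3-KO replicate 2 and WT replicate 1, which share their kind of title. The lists differ in length, with 3313 and 993 autosomal pairs in E2-KO, 1388 in E3-KO replicate 2 and 499 in E1-KO replicate 2. The counts are not corrected for this and do not show a gain particular to E2-KO. Within the telomere sides of all other chromosomes the E2-KO libraries listed 23 and 14 pairs. The numbers there were 58 and 4 in E1-KO, 17 and 7 in E3-KO, 1 and 24 in E1&E3-dKO, and 23 and 2 in WT.

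Within the centromere sides 159 pairs were listed against 151 expected, and the log2 ratio was -0.22 ± 0.91 (SD, n = 10; adjusted p = 0.834, exact sign-flip permutation test). WT replicate 2 listed none there. With the left-out segments of chromosomes 7 and 14 kept in, the ratio was 1.23 (adjusted p = 0.0107, exact permutation test).

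**Figure D4:**
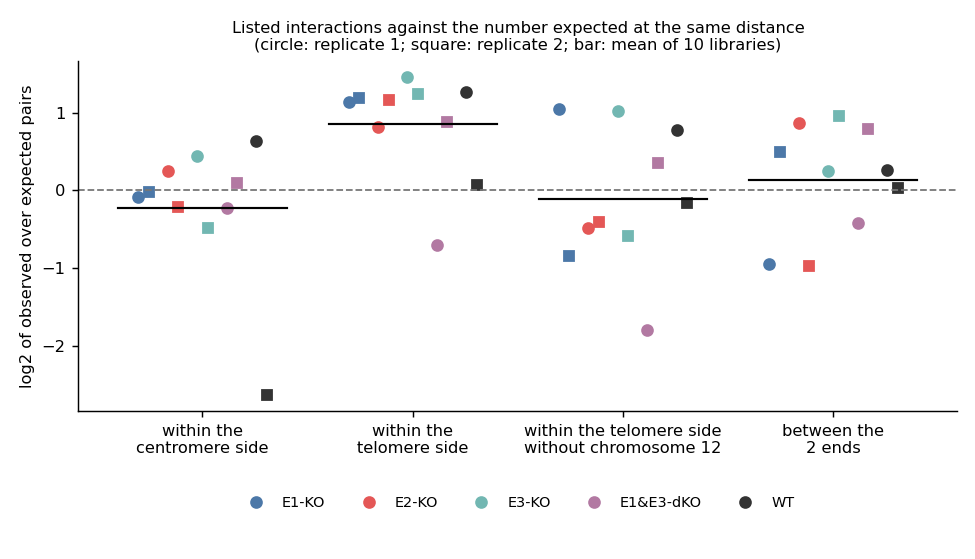
Log2 of observed over expected interactions in each library (circle, replicate 1; square, replicate 2; bar, mean of 10 libraries) within the centromere sides, within the telomere sides, within the telomere sides without chromosome 12, and between the 2 ends of a chromosome. The mean within the telomere sides was 0.85 with chromosome 12 and -0.11 without it.

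Contacts between the 2 ends of a chromosome were rare. The lists held 0 and 1 in the 2 E1-KO libraries, 14 and 0 with E2-KO, 2 and 3 with E3-KO, 1 and 9 with E1&E3-dKO, and 2 and 1 in WT. The sum was 33 (95% Poisson interval 22.7 to 46.3, counting error only) against 20.9 expected, and the log2 ratio per library was 0.13 ± 0.71 (SD, n = 10; adjusted p = 0.834, exact sign-flip permutation test). No listed pair spanned more than 100.0 Mb, so that a pair between ends could be listed on 5 chromosomes, with 9 on chromosome 15, 9 on 16, 3 on 17, 5 on 18 and 7 on 19. Each of the 33 was in 1 library, rested on 2 to 4 reads and spanned 48.6 to 98.9 Mb. Of the distinct pairs with a bin in the middles, 95.2% were in 1 library too. The pair with the smallest p joined the bins at 9.615 and 95.325 Mb of chromosome 16, 85.71 Mb apart, with 4 reads in E3-KO replicate 1.

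Recurrent interactions were few at the ends and in the middles alike. In 5 or more libraries were 5 of 1089 distinct pairs with a bin on the centromere sides (0.459%) and 15 of 1392 on the telomere sides (1.08%). In the middles it was 160 of 12975 (1.23%). Most of the 20 recurrent pairs of the ends were short: their bins lay 0.04 to 14.82 Mb apart, with a median distance of 0.29 Mb. Of 149 distinct pairs within the telomere sides, 52 were in at least 2 libraries, 25 of them on chromosome 12, and 14 were in at least 5 libraries, 12 of them on chromosome 12. Of 95 within the centromere sides, 18 were in at least 2 libraries and 4 in at least 5. Of 10778 within the middles, at all distances, 153 were in at least 5 libraries (1.42%). Of pairs that joined an end to the middle, 1 of 957 from the centromere side and 1 of 1210 from the telomere side were in at least 5 libraries.

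One interaction of the ends was in all 10 libraries, between the bins at 116.685 and 116.985 Mb of chromosome 12, 300 kb apart. It had 23 and 23 reads in the 2 E1-KO libraries, 29 and 30 with E2-KO, 26 and 22 with E3-KO, 11 and 18 with E1&E3-dKO, and 24 and 25 in WT. The lowest number was in E1&E3-dKO replicate 1, without correction for depth, and whether the reads of WT replicate 2 are counted double is unknown. A pair at 116.405 and 117.005 Mb of the same chromosome had 9 to 22 reads in 9 libraries and was not listed in WT replicate 2. On chromosome 5 the pair at 146.335 and 146.515 Mb had 11 to 27 reads in 9 libraries and was not listed in E1&E3-dKO replicate 1.

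On the centromere side the most recurrent pair joined the bins at 3.455 and 3.655 Mb of chromosome 4. It had 22 and 21 reads in the 2 E1-KO libraries, 22 and 17 with E2-KO, 14 and 14 with E3-KO, 15 and 12 with E1&E3-dKO, and 13 in WT replicate 1, and was not listed in WT replicate 2. A pair at 5.795 and 8.185 Mb of chromosome 5, 2.39 Mb apart, had 6 to 8 reads in the lists of 5 knockout libraries and was not listed for WT. A pair at 7.245 and 8.275 Mb of chromosome 17 had 10 reads in E1-KO replicate 1, 9 and 10 with E2-KO, and 5 and 9 with E3-KO, and was listed in no E1&E3-dKO or WT library. The longest of the recurrent pairs joined the centromere side to the middle, at 7.105 and 21.925 Mb of chromosome 10, and had 4 reads in E1-KO replicate 1, 6 in E2-KO replicate 2, 4 and 4 with E3-KO, and 4 in E1&E3-dKO replicate 1.

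**Figure D5:**
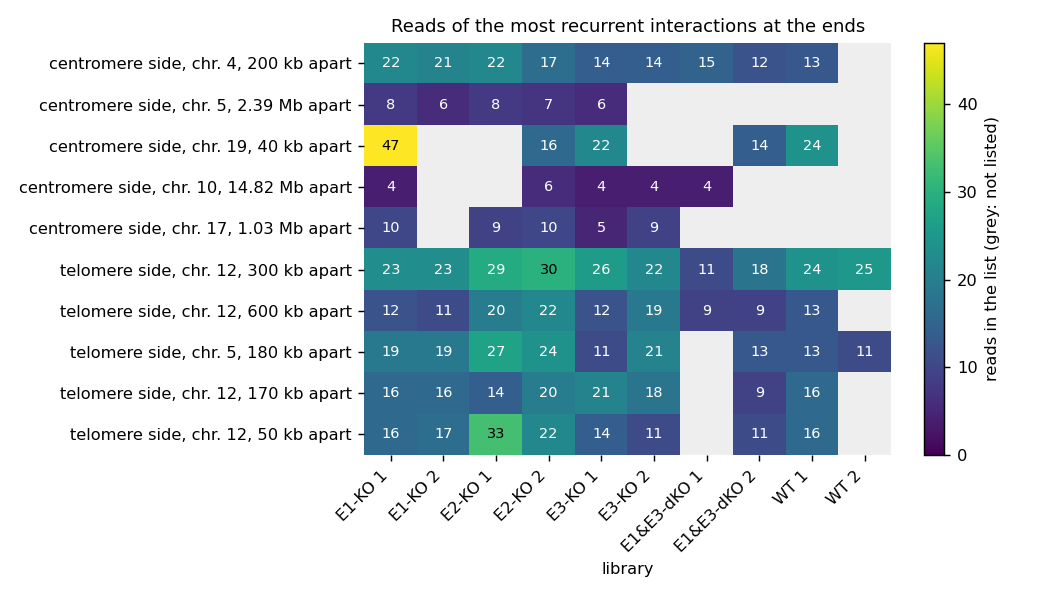
Reads of the 5 most recurrent interactions of the centromere sides and of the telomere sides in each library, named by chromosome and by the distance between their bins. Grey cells are libraries whose list does not hold the pair; 4 of the 5 telomere-side pairs lie on chromosome 12, and WT replicate 2 lists 2 of the 10 pairs.

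The genotypes were not distinguished by the balance of ends and middle. The centromere-to-middle log2 ratio of TADs per Mb was -0.47 ± 0.03 in E1-KO, -0.41 ± 0.14 in E2-KO, -0.46 ± 0.07 in E3-KO, -0.46 ± 0.00299 in E1&E3-dKO and -0.52 ± 0.12 in WT (SD, n = 2 each). The telomere-to-middle log2 ratio was -0.10 ± 0.05 in E1-KO, -0.27 ± 0.03 in E2-KO, -0.10 ± 0.12 in E3-KO, -0.19 ± 0.08 in E1&E3-dKO and -0.13 ± 0.04 in WT (SD, n = 2 each). Of 18 tests on genotype or on knockouts against WT, none passed, with a lowest unadjusted p of 0.244 and a lowest adjusted p of 0.589 (exact permutation tests). Under 2 of the other settings a genotype test passed: TAD length on the centromere side with ends of 5 Mb (adjusted p = 0.0419) and TADs per Mb on the telomere side with the same number of best-scoring TADs per library (adjusted p = 0.01995, exact permutation tests). The tests could have passed the unadjusted threshold at this number of libraries, but a miss does not show that the genotypes were alike.

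Borders of TADs that a genotype lost or gained were counted against both WT libraries. A lost border was listed, within 20 kb, by WT replicates 1 and 2 but by no library of the knockout, and a gained one by the knockout's libraries but not by WT. Each total is the number of borders that both libraries of WT (lost) or of the knockout (gained) listed. The comparisons share the WT libraries, and E2-KO is the genotype with both libraries titled w326. WT replicate 1, which by the rule lacks each gained feature, has such a title too, and the part of the title in the gained shares was not tested. E2-KO replicate 1 also had the longest TAD list, 7431 on the autosomes, and these counts are not corrected for the length of the lists. Shares that moved with the same number of best TADs per library are given in the closing section. At the ends E1-KO had lost 31 of 302 borders (10.3%) against a background of 10% over all autosomes, E2-KO 30 of 302 (9.93%) against 10.9%, E3-KO 14 of 302 (4.64%) against 6.89%, and E1&E3-dKO 28 of 302 (9.27%) against 9.14%. E1-KO had gained 37 of 310 (11.9%) against a background of 8.83%, E2-KO 95 of 299 (31.8%) against 33.9%, E3-KO 34 of 324 (10.5%) against 11.2%, and E1&E3-dKO 29 of 273 (10.6%) against 13.7%. The background lay within the 95% Wilson interval of each share of both sides together, the widest of them 26.8 to 37.3% for borders gained in E2-KO. By side, E1-KO had gained 19 of 125 on the centromere sides (15.2%, interval 9.95 to 22.5%), above its background of 8.83%. On the telomere sides it had gained 18 of 185 (9.73%). The other shares by side had their background within the interval. These intervals cover counting error only and take borders as independent, although 2 can bound the same TAD. Several were examined without correction for their number. The gained share of E1-KO on the centromere sides therefore does not show a departure from its background.

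The gained border with the highest score lay in E2-KO at 7.16 and 8.36 Mb of chromosome 17, the borders of TADs with a mean score of 7.34. A border at 8.36 Mb was also gained in E1-KO, with a score of 2.42, and one at 8.35 Mb in E1&E3-dKO, with 2.18. On the telomere side the highest in E2-KO were at 146.32 and 146.54 Mb of chromosome 5, with 4.06, on either side of the recurrent pair of that chromosome. Both WT libraries listed that pair too, with 13 and 11 reads. The nearest borders in the 2 WT libraries were 430 and 30 kb from the border at 146.32 Mb. They were 640 and 250 kb from the one at 146.54 Mb. Of the lost borders, the one at 6.95 Mb of chromosome 6, with a mean score of 1.98 in WT, was lost in both E1-KO and E2-KO by the 20 kb rule, with the nearest border 50 and 50 kb away in the E1-KO libraries and 80 and 60 kb away in the E2-KO libraries. The TAD that begins there was listed in all 10 libraries, as given above. The one at 194.0 Mb of chromosome 1, with 2.08, was lost in the same genotypes, with the nearest border 40 and 30 kb away in E1-KO libraries, where a border at 193.96 Mb counted as gained, and 140 and 50 kb away in E2-KO libraries. Of the lost borders at the ends, 9 of 31 for E1-KO, 19 of 30 for E2-KO, 5 of 14 for E3-KO and 9 of 28 for E1&E3-dKO had a border within 50 kb in at least 1 library of that genotype. Among the gained ones, 17 of 37 for E1-KO, 22 of 95 for E2-KO, 10 of 34 for E3-KO and 9 of 29 for E1&E3-dKO had one within 50 kb in at least 1 WT library. The counts of lost and gained borders thus do not separate a border listed further off from one not listed.

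Few interactions could be lost, since both WT libraries held 3 at the ends, and none of the 3 was lost in any genotype, against backgrounds of 10.8% in E1-KO, 5.88% in E2-KO, 2.94% in E3-KO and 10.8% in E1&E3-dKO. At the ends E1-KO had gained 5 of 17 against a background of 19.8%, E2-KO 40 of 68 (58.8%) against 60.2%, E3-KO 4 of 14 against 16.9%, and E1&E3-dKO 1 of 5 against 15.5%. On the centromere sides of E2-KO 21 of 25 held pairs were gained (84.0%, Wilson interval 65.3 to 93.6%), and 12 of the 21 lay on chromosome 17. On its telomere sides 19 of 43 were gained (44.2%, interval 30.4 to 58.9%), 11 of them on chromosome 12. Both intervals cover counting error only and take the pairs as independent, although many lie on 1 chromosome. They therefore do not test a departure from the background. The gained pairs with the smallest p were at 7.155 and 8.135 Mb of chromosome 17, which E3-KO had gained too, and at 115.955 and 116.125 Mb of chromosome 12.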

How the data were processed

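Per the labels, the submitters' processing notes name HiC-Pro 2.10.0, HOMER (version not given in the sources used here) and the build mm9. The authors deposited 20 files, 2 for each of the 10 libraries, and did not pool replicates. The deposited interaction lists give a count of reads per pair of 10 kb bins that is not normalised, a p-value with its adjusted value (never above 0.01), and per bin a ratio between 0.5 and 2 in every line of the deposited lists, unnamed there and taken as a bias factor. The deposited TAD lists give positions and a score of at least 1.5. The tool behind the interaction lists is not given in the sources used here. The list of WT replicate 2 held each of its 466 pairs in both orientations, and each was used once. Its reads were used as listed, and whether they are counted double is unknown. Per the labels, more than 1 mix of exonucleases was used, without saying for which library, so the mix could not be tested as a batch.

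A TAD belonged to an end when it overlapped it. TADs per Mb, median length and score, and pairs per Mb were computed per library as log2 ratios. Expected pairs came from pairs within the middles, per possible pair of bins in 5 Mb classes, with 0.5 added to both numbers. Ends were tested by exact sign flips over 10 libraries (two-sided), genotypes by all 945 pairings (one-sided), and knockouts against WT by all 45 choices of 2 libraries (two-sided). The 33 p-values were adjusted together by Benjamini-Hochberg with a threshold of 0.05. TADs recurred when they overlapped reciprocally by 80%, borders within 20 kb, and pairs within 1 bin at both ends. The procedures were tested on simulated data.

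Named regions were, by rule, the 5 TADs and the 5 interactions on each side found in most libraries (ties by highest mean score or smallest mean p), the pairs between ends with the smallest p, the 2 chromosomes highest and lowest per side, and the lost and gained features highest in score or smallest in p, of which the text gives some. The members and lists were chosen with earlier results of these data known. Python 3.11.15, numpy 2.4.6, pandas 2.3.3, scipy 1.17.1 and statsmodels 0.14.6 were used. The gene table at hand is for another build, so no gene is assigned to a region. The alternatives are given in the closing section.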

Additional observations from a re-analysis of the deposited data

Results flagged for a closer look

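In the log2 ratio of observed to expected interactions within the centromere sides, WT replicate 2 lay at -2.63, far below the other 9 libraries, which lay between -0.48 and 0.63. That library listed 0 such pairs where 2.60 were expected, and the value depends on the 0.5 added to both numbers. Over 15 ratios examined for a sample far from the rest, chance flags about 1 in 20.

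The log2 ratio of the median TAD score on the centromere side to that on the telomere side was positive in both libraries of E1-KO, E2-KO and E3-KO and negative in both of E1&E3-dKO. In WT it was 0.0342 and -0.0132, so that WT lay on both sides of 0, and in E3-KO replicate 1 it was 0.00127. The difference from E1&E3-dKO was 0.0437 for E1-KO, 0.0516 for E2-KO and 0.0349 for E3-KO. The differences were not tested.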

How the results depend on the processing

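Of the values recomputed under other settings, library omissions aside, 367 kept their direction and their side of the threshold or moved little, 39 turned in direction, 16 lost their call, 15 gained one and 18 shares moved. Values below are log2 ratios of the centromere side to the middle (C/M), the telomere side to the middle (T/M) or the centromere to the telomere side (C/T), or differences of such ratios for knockouts minus WT, and p-values are from exact permutation tests. Where no construction is named, the cause was not tested. With ends of 5 Mb, TAD length was 0.20 C/M and 0.19 C/T, which lost their calls, TAD score was 0.025 C/M and 0.034 C/T, now called, and -0.0094 T/M, interactions per Mb were 0.36 C/M, now called, observed over expected pairs were 0.034 within the centromere side and -0.24 between ends, and genotype differed in TAD length C/M with an exact permutation p of 0.0127. Knockouts minus WT were then 0.059 for TADs per Mb T/M, 0.10 for TAD length C/M and 0.21 for pairs between ends, and 9.95% of TADs and 15.9% of borders on the telomere side were in at least 5 libraries. With ends of 10 Mb, TADs per Mb were -0.074 T/M and TAD length 0.19 C/M and 0.13 C/T, all without a call, and knockouts minus WT were 0.0044 for TADs per Mb T/M, -0.0034 for length T/M and -0.0014 for score C/M. With the left-out segments kept in, score was 0.025 C/M and interactions per Mb 0.69 C/M, both now called, interactions were -0.070 C/T without a call, and observed over expected pairs within the centromere side were 1.23. With X added, length was 0.19 C/T and interactions -0.20 C/T, both without a call, and score 0.027 and interactions 0.55 C/M were called. By midpoint, length was 0.25 C/M without a call and -0.019 T/M.

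With a score of at least 2, TADs per Mb were -0.037 C/M, 0.045 T/M and -0.082 C/T without a call, length was -0.048 T/M, and score was 0.032 C/M and 0.031 C/T, now called. Knockouts minus WT were -0.029 for TADs per Mb C/M, 0.24 for length C/M and -0.19 for length T/M. The shares in at least 5 libraries were 6.19% of TADs and 7.13% of borders on the centromere side and 5.75% and 7.18% on the telomere side, the borders gained at the ends were 19.4% for E1-KO and 45.3% for E2-KO, and those lost were 3.33% for E1&E3-dKO. With the same number of best TADs per library, length was -0.046 T/M, genotype differed in TADs per Mb T/M with an exact permutation p of 0.00423, and knockouts minus WT were 0.020 for TADs per Mb T/M, -0.021 for length T/M, -0.0063 for score C/M and -0.0073 for score T/M. The recurring shares were then 15.2% of TADs and 18.1% of borders on the centromere side and 17.1% and 24.2% on the telomere side, borders lost were 18.96% in E2-KO, 8.92% in E3-KO and 13.4% in E1&E3-dKO, and borders gained 22.3% in E2-KO. With means of log2 values, length was -0.033 T/M, and score was 0.026 C/M and 0.018 T/M, now called.

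With an adjusted p of at most 0.001, interactions per Mb were -0.078 C/M, and knockouts minus WT were 0.47 for interactions C/M, 0.0053 for T/M and 0.57 for pairs between ends. With the same number of best interactions, pairs between ends were at -0.0064 and knockouts minus WT at 0.28. With pairs under 2 Mb, interactions were 0.54 T/M without a call, and C/M and C/T were not run because a library had no such pair. With pairs of 20 Mb and more they were 0.69 C/M, now called, and -0.24 C/T without a call. As bin ends they were -0.35 C/M. With 10 Mb classes observed over expected pairs were 0.28 within the centromere side, and knockouts minus WT were 0.020 between ends, against 0.061 with 1 in place of 0.5 added. Of the settings chosen after seeing the data, leaving out the outermost 2 Mb gave 0.22 T/M for TADs per Mb, 0.36 C/M for interactions, now called, 0.78 for knockouts minus WT between ends and 22.9% of recurring borders on the telomere side. Leaving out chromosome 12 gave -0.0071 for length T/M, -0.26 for interactions C/T without a call and -0.11 for pairs within the telomere side, and finer classes gave 0.51 for the last without a call. By bin ends without chromosome 12, interactions per Mb were -0.31 C/M, -0.077 T/M and -0.24 C/T, the last 2 without a call, and knockouts minus WT was 0.012 C/M.

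Leaving out each library in turn changed no call of TADs per Mb (C/M -0.48 to -0.45, T/M -0.17 to -0.14). Values with a change ran from 0.23 to 0.37 for interactions C/M (called without E1-KO replicate 1), -0.028 to 0.033 for length T/M, 0.019 to 0.024 for score C/M (called without WT replicate 2 or E1&E3-dKO replicate 1), 0.0094 to 0.017 for score T/M (called without E2-KO replicate 1) and -0.32 to 0.045 for pairs within the centromere side, positive without WT replicate 2. Knockouts minus WT ran from -0.018 to 0.15 for TADs per Mb C/M, -0.18 to 0.060 for length C/M, -0.011 to 0.028 for score C/M and -0.14 to 0.13 for pairs between ends. The shares in at least 5 libraries ran from 9.6 to 15.2% of TADs and 13.4 to 18.6% of borders on the centromere side, and from 10.6 to 16.5% and 17.6 to 25% on the telomere side, each highest without E2-KO replicate 1. A group left with 1 library needs only that one, which raises its shares: borders gained ran from 11.9 to 31.9% in E1-KO, 31.8 to 73.0% in E2-KO, 10.5 to 45.6% in E3-KO and 10.6 to 52.6% in E1&E3-dKO, and borders lost from 10.3 to 32.3%, 9.93 to 37.7%, 4.64 to 22.8% and 9.27 to 28.0% in the same order.

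The replicate numbers name libraries and nothing in the labels pairs them. With the replicate number as a replicate block, over 25 choices, knockouts minus WT was 0.07 for TADs per Mb C/M (p = 0.36, exact permutation test) and no call changed. By title, TADs per Mb were -0.48 C/M and -0.20 T/M in the 4 libraries titled w326, and -0.45 and -0.12 in the other 6, so that each of the 2 sets had the direction of the whole. Total depth is unknown, pairs between ends rest on few reads, and 2 libraries per genotype limit all genotype tests.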

Other observations

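The segments left out of the ends held few TADs and many interactions. From 3 to 8.5 Mb of chromosome 14 the libraries listed 1 to 3 TADs and a median of 2.73 interactions per Mb, and from 7 to 10 Mb of chromosome 7 they listed 0 to 3 TADs and a median of 3.5 interactions per Mb, against 0.20 to 2.68 per Mb in the middles of the libraries. Of the interactions on chromosome 14, a median of 12.5 per library lay wholly inside the segment, with the most in E2-KO replicate 1, 58.

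The ends of chromosome X entered the ratios only under the setting that adds X. The centromere side of X held 10 to 42 interactions per library, a median of 2.21 per Mb, and the telomere side 0 to 20, a median of 0.286 per Mb, against a median of 0.341 per Mb in the middle of X. TADs were at a median of 1.71 per Mb on its centromere side and 1.57 on its telomere side, against 2.09 in its middle.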
